A study of Homo sapiens with 16 samples.

Results

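FGA, FGB and FGG encode the alpha, beta and gamma chains of fibrinogen, the plasma protein that thrombin turns into fibrin. The 3 genes were picked by symbol from the 18227 genes of the deposited tables, with their levels and knockout differences in these libraries already known. Those levels and differences are therefore given as a description, with no test, and tests are kept for other genes. The lists of other genes were also chosen with earlier results of these data known, so their calls are no independent support. RNA was sequenced from A549 and H2023, both established lines of human lung tumours (non-small cell), to compare cells with and without ZC3H12A, the gene of the RNase Regnase-1, which cleaves inflammatory mRNAs. Each line was wild type or labelled ZC3H12A knockout, and was grown either for 3 days under normal conditions or for 7 days under conditions that enrich for stem cells (oncospheres), so culture type and days change together. This gives 8 groups of 2 libraries, 16 in all: A549 wild type and A549 ZC3H12A knockout in each culture, and H2023 wild type and H2023 ZC3H12A knockout in each culture. The titles name 1 knockout clone per line, so that genotype and clone cannot be told apart, and nothing in the labels says that the replicates came from separate cultures, so p-values measure only the spread between these libraries.

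Fibrinogen is assembled in the endoplasmic reticulum from all 3 chains, and a chain without its partners is largely held back in the cell. Hepatocytes make nearly all of the circulating protein. Their high basal transcription of the genes rests on liver-enriched transcription factors, C/EBP proteins among them, and interleukin 6 raises it through STAT3 in the acute-phase response. Lung epithelial cells, A549 among them, are also known to make fibrinogen when stimulated.

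The values used are TPM (transcript abundance scaled by gene length and to a fixed library total), which can be compared between genes. Each library had 13824 to 14508 genes at 1 TPM or more, and its depth is unknown because TPM does not keep it. ZC3H12A mRNA was lower in the libraries labelled knockout in A549 normal culture alone, at 18.4 ± 2.14 TPM (SD, n = 2) against 32.8 ± 2.94 in wild type. Elsewhere the labelled knockout had more of it than wild type, with means of 57.9 against 48.8 TPM in A549 stem-cell-enriched culture, 41.5 against 28.3 in H2023 normal culture and 81.9 against 29.5 in H2023 stem-cell-enriched culture. The mRNA level was thus higher in the labelled knockout in 3 of 4 comparisons. TPM per gene does not show whether a transcript is functional, so this level does not test the knockout. The groups are called labelled knockout throughout. Of 12 epithelial markers, 7 had a row, and their summed level was 2574 to 13034 TPM per library, most of it keratins, and lowest in the A549 labelled knockout in normal culture. NKX2-1, SFTPB, SFTPC, SFTPA1 and SCGB1A1, which define lung and airway epithelium, have no row in the tables used here.

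The genes lie side by side within 50 kb of chromosome 4 (GRCh38, GENCODE annotation). FGB is at chr4:154562956-154571086 on the + strand, FGA at chr4:154583126-154590766 on the - strand and FGG at chr4:154604134-154612967 on the - strand, so FGA and FGG point towards FGB. The stretches upstream of their RefSeq start sites (GRCh38.p14) are shown because the groups differ in the level of all 3 genes together and the factors known to act there were measured in the same libraries. Capitals mark matches to a pair of motifs searched on both strands: CTGGGAA, the acute-phase element bound by STAT3, and TTGCNNAA, an element of the C/EBP type. The FGA and FGB sequences run from base 250 to base 31 before the start, at chr4:154590773-154590992 on the - strand and chr4:154562730-154562949 on the + strand. For FGG 30 bases are given, at chr4:154612803-154612832 on the - strand, because longer annotated FGG transcripts begin further upstream.
FGA: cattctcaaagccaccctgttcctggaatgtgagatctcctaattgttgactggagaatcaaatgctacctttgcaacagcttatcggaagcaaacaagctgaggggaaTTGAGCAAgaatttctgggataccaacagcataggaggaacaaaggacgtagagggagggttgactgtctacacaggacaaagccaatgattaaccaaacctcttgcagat
FGB: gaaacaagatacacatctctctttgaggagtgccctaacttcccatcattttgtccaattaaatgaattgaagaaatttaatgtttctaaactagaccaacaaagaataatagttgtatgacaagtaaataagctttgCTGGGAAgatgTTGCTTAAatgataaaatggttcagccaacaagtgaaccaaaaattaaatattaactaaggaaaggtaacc
FGG: acctgtgtgcaaaatCTGGGAAcctgacag

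Counting the base before the start as -1, a C/EBP-type match began at -141 in FGA, on the opposite strand, and at -101 in FGB, and 8.22% of 35116 RefSeq promoter windows of the same 220 bases hold one. The acute-phase element began at -112 in FGB and at -161 in FGG, whose whole 220-base window was searched, against 8.08% of windows. Both motifs together, as in the FGB window, were found in 0.624% of windows. The matches did not overlap. These are matches of letters and not measured binding.

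In A549 the chains differed between genotypes by up to 170 times in stem-cell-enriched culture, while in H2023 every library held each chain at 33 TPM or more. The lowest group for each chain was the A549 labelled knockout in normal culture, the next was the A549 labelled knockout in stem-cell-enriched culture, and the highest was A549 wild type in stem-cell-enriched culture. None of these 3 groups overlapped its neighbour in the order. The 4 H2023 groups and A549 wild type in normal culture lay between them. In bulk RNA, fewer cells that express a gene and less RNA per cell cannot be told apart.

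**Figure D1:**
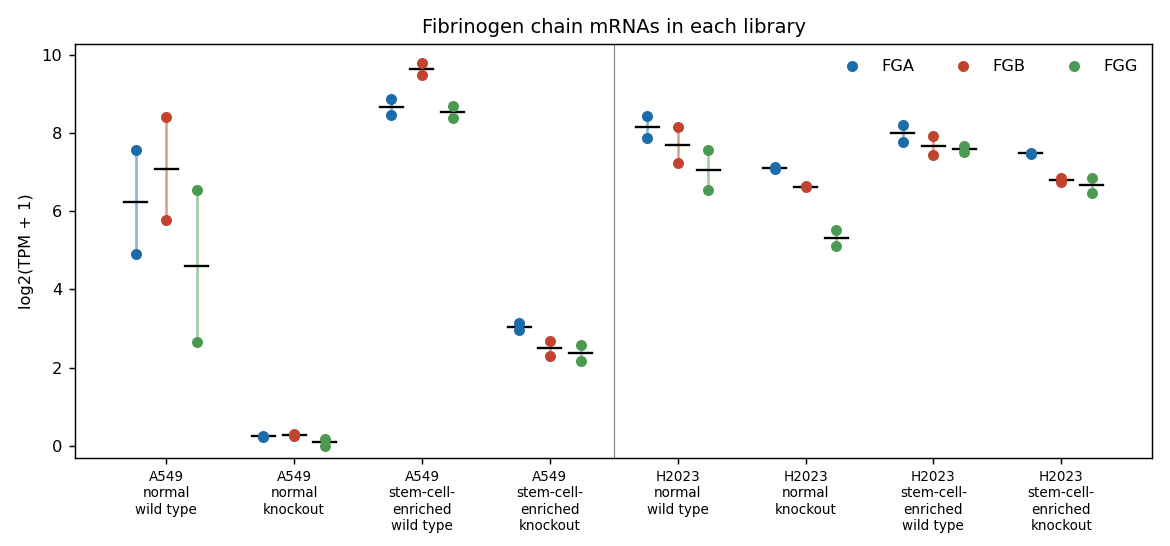
Levels of FGA, FGB and FGG, as log2(TPM + 1), in the 2 libraries (points joined by a line) of each of the 8 groups, with the group mean as a black bar. The labelled knockout libraries of A549 sit below 8 TPM for every chain, those of H2023 at 33 TPM or more.

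FGA, the alpha chain, which carries a fibrinopeptide that thrombin removes, was at 29.15 and 189 TPM in A549 wild type in normal culture and at 0.17 and 0.2 TPM in the labelled knockout. With stem-cell-enriched culture it was at 351.26 and 468.71 TPM in A549 wild type and at 7.74 and 6.73 TPM in the labelled knockout. The labelled knockout libraries were below the wild-type libraries in both cultures, and stem-cell-enriched libraries were above normal ones in both genotypes. In H2023 wild type FGA was at 231.89 and 345.25 TPM in normal culture and at 217.88 and 292.8 TPM in stem-cell-enriched culture, which overlap. The H2023 libraries labelled knockout held 133.01 and 138.86 TPM in normal culture and 174.76 and 179.11 TPM in stem-cell-enriched culture, below their wild type in each culture and with close replicates. From lowest to highest the other group means ran from A549 wild type in normal culture (109 ± 113 TPM, SD, n = 2), whose libraries span both H2023 labelled knockout groups, through H2023 labelled knockout in normal (136 ± 4.14) and stem-cell-enriched culture (177 ± 3.08) to H2023 wild type in stem-cell-enriched (255 ± 53.0) and normal culture (289 ± 80.2).

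FGB, the beta chain, often named as the chain whose supply limits assembly, was the most abundant of the 3 in A549 wild type. It was at 53.39 and 338.9 TPM there in normal culture and at 710.73 and 878.24 TPM in stem-cell-enriched culture, where it ranked 195 and 144 from the top of 18227 genes. The A549 libraries labelled knockout held 0.2 and 0.24 TPM in normal culture and 5.44 and 3.92 TPM in stem-cell-enriched culture. Its levels in A549 thus separated by genotype and by culture without overlap. In H2023 FGB was at 149.66 and 281.23 TPM in wild type in normal culture and at 170.91 and 239.79 TPM in stem-cell-enriched culture. The H2023 libraries labelled knockout held 97.89 and 97.33 TPM in normal and 114.26 and 105.96 TPM in stem-cell-enriched culture, again below wild type. A549 wild type in normal culture spans the FGB levels of all 8 H2023 libraries, so its place in the order is not fixed by these libraries.

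FGG, the gamma chain, which holds a binding site for the platelet integrin, was the scarcest chain in all 4 A549 wild-type libraries. Those of normal culture held 5.27 and 92.05 TPM and those of stem-cell-enriched culture 329.08 and 413.54 TPM. In the A549 labelled knockout it was listed at 0 and 0.13 TPM in normal culture and was at 3.48 and 4.97 TPM in stem-cell-enriched culture. The groups of A549 did not overlap in any of the 4 comparisons of genotype or culture. In H2023 FGG was at 92.21 and 187.94 TPM in wild type in normal culture and at 182.5 and 200.85 TPM in stem-cell-enriched culture, with overlap. The H2023 labelled knockout was at 33.19 and 45.05 TPM in normal culture and at 114.78 and 86.77 TPM in stem-cell-enriched culture. In normal culture its wild-type libraries overlapped those of the labelled knockout grown in stem-cell-enriched culture.

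Each chain was thus lower in the libraries labelled knockout than in wild type in all 4 comparisons, with no overlap. Such a separation of 2 libraries below 2 was found in A549 for 34.6% of all genes under normal and 27.8% under stem-cell-enriched culture, and in H2023 for 24.5% and 18.9%, and nothing is read from the members' count, since these differences helped to choose them. The size of the difference set the lines apart. In A549 stem-cell-enriched culture the wild-type mean was 56.7 times the labelled knockout mean for FGA, 170 times for FGB and 87.9 times for FGG. In H2023 the same ratio was 2.12, 2.21 and 3.58 in normal culture and 1.44, 1.86 and 1.90 in stem-cell-enriched culture, for FGA, FGB and FGG in that order.

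On the log2(TPM + 1) scale, which understates changes of low values, the labelled knockout minus wild type was -5.63 (SE 0.23) for FGA, -7.13 (SE 0.25) for FGB and -6.16 (SE 0.26) for FGG in A549 stem-cell-enriched culture. The authors' deposited table gives log2 fold changes of -5.87 (SE 0.21), -7.45 (SE 0.22) and -6.51 (SE 0.23) there. In H2023 normal culture the differences were -1.05 (SE 0.29), -1.06 (SE 0.45) and -1.74 (SE 0.55), and the authors' deposited table has -1.10 (SE 0.18), -1.18 (SE 0.42) and -1.88 (SE 0.54). H2023 stem-cell-enriched culture gave the smallest differences, -0.51 (SE 0.21), -0.87 (SE 0.25) and -0.93 (SE 0.21), against -0.63 (SE 0.23), -0.91 (SE 0.23) and -1.07 (SE 0.23) in the authors' deposited table. FGA was the least lowered chain in H2023 in both cultures and FGG the most, on each of these measures.

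A549 normal culture needs more care at both ends. With the authors' mean normalized count per TPM in that table, the labelled knockout values correspond to about 5.43 and 6.39 normalized counts for FGA, 3.65 and 4.38 for FGB, and 0 and 2.82 for FGG, so no fold change of means is given. The differences on the log2(TPM + 1) scale were -6.00 (SE 1.33) for FGA, -6.80 (SE 1.32) for FGB and -4.51 (SE 1.95) for FGG. The authors' deposited table gives -9.01 (SE 1.26), -10.15 (SE 1.43) and -8.86 (SE 1.88). Much of the error came from wild type, where replicate 2 held 6.48 times the FGA, 6.35 times the FGB and 17.5 times the FGG of replicate 1. Against replicate 1 alone the differences were -4.67, -5.48 and -2.56, and against replicate 2 alone -7.33, -8.12 and -6.45.

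That gap between the A549 wild-type replicates in normal culture was among the widest of all genes. By absolute log2 gap FGG ranked 2, FGA 6 and FGB 8 among 18227 genes, and 311 genes differed by more than 1 on this scale. Of the hepatocyte-type transcription factors 7 of 14 were higher in replicate 2, with a median log2 gap of -0.01 against -0.03 over all genes. Other plasma proteins of hepatocytes were higher in replicate 2 for 14 of 21 genes, with a median of 0.19. Over all genes 8143 of 18227 were higher in replicate 2. H2023 wild type in normal culture had smaller gaps, again widest for FGG, with replicate 2 at 1.49 times replicate 1 for FGA, 1.88 times for FGB and 2.04 times for FGG. In the other groups the higher replicate held at most 1.43 times the lower one, setting aside FGG in the A549 labelled knockout in normal culture, listed at 0 in 1 library.

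The chains were higher in stem-cell-enriched than in normal culture in A549 and overlapped between cultures in H2023 wild type. In A549 wild type the stem-cell-enriched minus normal difference on the log2(TPM + 1) scale was 2.43 (SE 1.34) for FGA, 2.54 (SE 1.33) for FGB and 3.94 (SE 1.95) for FGG, and without overlap, as for 33.7% of all genes. Taking normal-culture replicate 2 alone as the base these became 1.10, 1.22 and 1.99, and with replicate 1 alone 3.75, 3.86 and 5.88. In the A549 labelled knockout the differences were 2.79 (SE 0.09), 2.21 (SE 0.20) and 2.28 (SE 0.23), again without overlap, which held for 30.6% of genes. In H2023 wild type they were -0.16 (SE 0.36), -0.02 (SE 0.51) and 0.54 (SE 0.51), with overlap for all 3 chains, where 46.1% of genes were lower and 14.6% higher without overlap. In the H2023 labelled knockout they were 0.38 (SE 0.04), 0.17 (SE 0.05) and 1.35 (SE 0.29), all without overlap, as for 22.7% of genes, and FGG had the largest of the 3.

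The make-up of the summed fibrinogen mRNA differed between the lines. FGB was the largest part in all 4 A549 wild-type libraries, at 49.9% to 60.8% of the summed TPM (median 52.9%), and FGA held 25.3% to 33.2%. In H2023 FGA was the largest part in all 8 libraries, at 38.1% to 50.4% (median 45.7%), with FGB at 28.3% to 37.1%. The A549 labelled knockout in stem-cell-enriched culture had the H2023 order of FGA over FGB, with FGA at 46.5% and 43.1% and FGB at 32.7% and 25.1%. The FGG share ran from 6.002% and 14.8% in A549 wild type in normal culture to 23.7% and 23.5% in stem-cell-enriched culture. H2023 libraries had 12.6% to 23.1% of FGG under normal and 23.3% to 31.9% under stem-cell-enriched conditions. The summed level itself ran from 0.37 TPM in an A549 labelled knockout library to 1760 TPM in an A549 wild-type library.

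**Figure D2:**
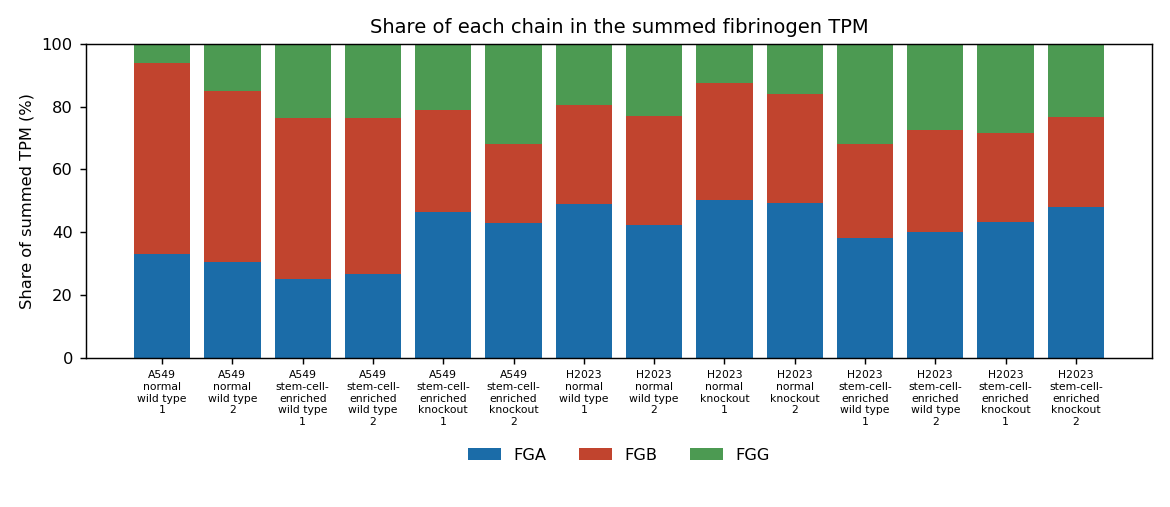
Share (%) of FGA, FGB and FGG in their summed TPM in each library, numbered by replicate within its group, leaving out the 2 A549 labelled knockout libraries of normal culture, whose sum is below 1 TPM. FGB is the largest share in the 4 A549 wild-type libraries and FGA in the other 10.

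Likeness to each chain was measured as the Pearson r of log2(TPM + 1) over the 16 libraries among 12559 genes with a mean of at least 5 TPM in some group, and is a description, since all libraries share groups and lines. The chains were most like each other, with r of 0.978 for FGA with FGB, 0.972 for FGA with FGG and 0.957 for FGB with FGG. They also varied together inside each line, with r of 0.966 to 0.994 over the 8 A549 libraries and 0.843 to 0.969 over the 8 H2023 libraries. Among the most like genes outside the locus were METTL7B (r = 0.962) and ELF3 (r = 0.949) for FGA, and METTL7B (r = 0.953) and POF1B (r = 0.945) for FGB. The nearest to FGG were ERBB3 (r = 0.946), KAZALD1 (r = 0.944) and EPS8L3 (r = 0.943). METTL7B encodes a methyltransferase of lipid droplets and the endoplasmic reticulum, ELF3 an epithelial ETS factor and ERBB3 a receptor of the EGFR family.

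These values rest largely on the A549 libraries. METTL7B had r of 0.973 with FGA and 0.980 with FGB over the A549 libraries, and -0.05 and -0.08 over the H2023 ones. For POF1B with FGB the H2023 value was -0.39. ERBB3 kept r of 0.852 with FGG in H2023. ERBB3 was at 104.37 and 84.09 TPM in A549 wild type in stem-cell-enriched culture, 3.33 and 3.1 TPM in the labelled knockout there, and 28.28 and 24.23 TPM in H2023 wild type against 11.23 and 6.5 TPM in the H2023 labelled knockout in normal culture. It was thus lower in the labelled knockout in both lines. Nothing is read from this, since ERBB3 was picked for its likeness to FGG in these libraries. KAZALD1, picked in the same way, was at 31.96 and 32.47 TPM in the H2023 labelled knockout in stem-cell-enriched culture. Wild type there held less KAZALD1, at 22.47 and 22.97 TPM, and EPS8L3 overlapped between the genotypes.

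The transcription factors of the hepatocyte type were tested with limma, with Benjamini-Hochberg adjustment over all 18227 genes. This list and those below were chosen with earlier results of these data known. In A549, 5 of 14 fell and 0 rose in the labelled knockout in normal culture, where 8.83% of all genes fell and 6.52% rose. In stem-cell-enriched culture 7 of 14 fell and 0 rose, where 10.1% of all genes fell and 9.39% rose. Without wild-type replicate 1 this count was 4. The medians of the 14 log2 differences were -0.58 and -0.83, against -0.03 and 0.03 over all genes. HNF4A, HNF4G and FOXA3 fell in both cultures, and these 3 passed in each of the 4 fits of either culture that left out 1 library of the comparison.

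HNF4A, a nuclear receptor central to hepatocyte identity, was at 9.99 and 15.46 TPM in A549 wild type and 0.39 and 2.05 TPM in the labelled knockout in normal culture, a log2 difference of -2.71 (SE 0.36, limma adjusted p = 0.00326). In stem-cell-enriched culture it was at 22.74 and 28.12 TPM against 1.25 and 1.47 TPM, a difference of -3.48 (SE 0.36, limma adjusted p = 0.000656). NR5A2, a nuclear receptor of liver and pancreas, fell by 2.43 (SE 0.37) and HNF4G by 2.07 (SE 0.24) in normal culture. In stem-cell-enriched culture FOXA3 fell by 2.52 (SE 0.21) and FOXA2 by 1.65 (SE 0.34), the latter not past the threshold without wild-type replicate 1. CEBPB, the C/EBP protein of the acute phase, did not pass the test, at 94.0 and 89.8 TPM in normal culture and 129 and 126 TPM in stem-cell-enriched culture, wild type first. In A549, CEBPB and STAT3 lie outside the rule for named genes and were chosen after their values were seen.

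In H2023 limma called 0 of the 14 factors in either culture, where its calls made up 0.806% of all genes under normal and 1.54% under stem-cell-enriched conditions. The authors' deposited tables call 4 lower and 0 higher in normal culture and 2 lower and 1 higher in stem-cell-enriched culture, where 6.97% of genes were lower and 3.84% higher in the first and 2.85% and 2.22% in the second. HNF4A was at 0.69 to 3.14 TPM in H2023. NR5A2 had a log2 difference of -1.20 (SE 0.29, limma adjusted p = 0.0962) in stem-cell-enriched culture. In normal culture FOXA1 had one of -1.01 (SE 0.26, limma adjusted p = 0.151) and CEBPB one of -0.98 (SE 0.17, limma adjusted p = 0.0713). The authors' deposited table calls FOXA1 and CEBPB lower there. Whether the differences of these factors differ between A549 and H2023 was not tested.

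**Figure D3:**
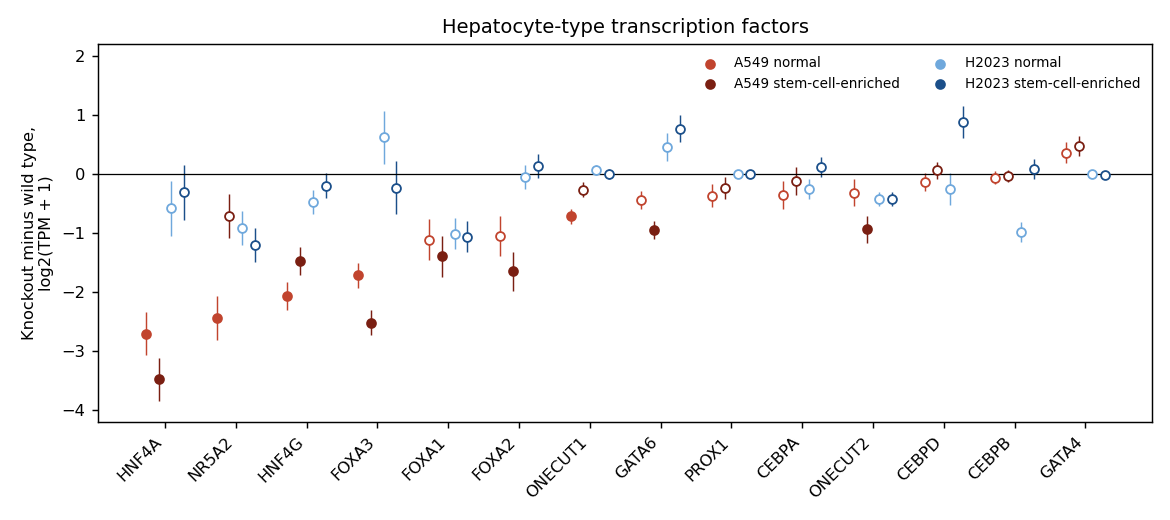
Difference in log2(TPM + 1), labelled knockout minus wild type, with its SE, for 14 hepatocyte-type transcription factors in 4 comparisons. Filled points pass limma with an adjusted p under 0.05, and all of them are A549 comparisons below 0.

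The list of genes of the IL-6 family and STAT3 signalling had 16 with a row. It also holds SOCS1, SOCS3, PIAS3, IL1B and IL1R1, so not all of its members raise fibrinogen transcription. In the A549 labelled knockout 2 rose and 1 fell in normal culture, near the share of all genes (6.52% and 8.83%). In stem-cell-enriched culture 7 rose and 0 fell, against 9.39% and 10.1% of all genes, but without any 1 of the 4 libraries only 3 or 4 passed. IL11, a cytokine of the family, rose from 11.7 and 12.35 TPM to a mean of 83.1 TPM in normal culture (log2 difference 2.63, SE 0.50) and from 2.92 to 22.9 TPM in stem-cell-enriched culture (2.76, SE 0.50). In normal culture this call held in 1 of the 4 fits without a library, that without labelled knockout replicate 2. LIFR, the receptor of LIF, rose by 1.62 (SE 0.18) and 2.44 (SE 0.18), and held in all 8. IL6R, the receptor of interleukin 6, fell by 0.90 (SE 0.18) in normal culture and held only without wild-type replicate 2. STAT3 had means of 47.4 TPM (wild type) and 53.6 TPM (labelled knockout) in normal culture, and 64.3 and 85.3 TPM in stem-cell-enriched culture. In H2023 limma called 0 of 16 genes in both cultures. The authors' deposited tables call 2 lower in normal culture, where 6.97% of genes were lower. In stem-cell-enriched culture they call 0, where 2.22% of genes were higher and 2.85% lower.

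Other plasma proteins of hepatocytes fell more often than they rose in A549. Of 32 genes listed 21 had a row, of which 6 fell and 0 rose in the labelled knockout in normal culture, against 8.83% and 6.52% of all genes, and 10 fell and 1 rose in stem-cell-enriched culture, against 10.1% and 9.39%. The medians were -0.45 and -1.09. TF, transferrin, fell from a mean of 39.2 to 0.005 TPM in stem-cell-enriched culture (log2 difference -5.32, SE 0.28), SERPINA1, alpha-1 antitrypsin, from 59.3 to 1.75 TPM (-4.61, SE 0.46) and ALB, albumin, from 21.8 to 0.71 TPM (-3.76, SE 0.26). APOH, an apolipoprotein that binds phospholipid, fell from 17.6 to 1.10 TPM in normal and from 80.7 to 11.5 TPM in stem-cell-enriched culture. SAA1 and SAA2, acute-phase proteins, fell by 3.03 (SE 0.53) and 2.65 (SE 0.41) in normal culture, SAA1 not past the threshold without wild-type replicate 2. ITIH2, a heavy chain of the inter-alpha-trypsin inhibitors, fell by 2.69 (SE 0.22) there.

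In H2023 limma called 0 of the 21 plasma proteins in normal culture, where 0.258% of all genes rose and 0.549% fell. The authors' deposited table calls 6 lower and 0 higher there, where it calls 6.97% of genes lower and 3.84% higher. In stem-cell-enriched culture 3 rose and 2 fell by limma, against 0.796% and 0.746% of all genes. The authors' deposited table calls 3 higher and 6 lower there, where it calls 2.22% of genes higher and 2.85% lower. ALB was at 335.91 and 268.77 TPM in H2023 wild type and at 18.71 and 2.38 TPM in the labelled knockout (log2 difference -5.21, SE 0.77, limma adjusted p = 0.0397). AMBP, the precursor of alpha-1 microglobulin, fell by 1.39 (SE 0.20). SAA1 rose from a mean of 5.03 to 162 TPM and SAA2 from 2.82 to 101 TPM, the opposite direction to the chains. Leaving out 1 library left 0 to 2 of the rises and 0 or 1 of the falls.

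Between cultures, every called plasma protein was higher in stem-cell-enriched culture. In stem-cell-enriched against normal culture 17 of 21 rose in A549 wild type and 12 in the A549 labelled knockout, where 19% and 10.9% of all genes rose. In H2023, 7 rose in wild type and 14 in the labelled knockout, where 3.96% and 7.68% of all genes rose. By limma 0 fell in these 4 comparisons, where 21.6% and 9.87% of all genes fell in A549 and 17.4% and 19.2% in H2023. With 1 library left out the H2023 wild-type count ran from 3 to 8 (3 without normal-culture replicate 1, 4 without normal-culture replicate 2) and that of the H2023 labelled knockout from 8 to 14 (8 without normal-culture replicate 2). SERPINA3, an acute-phase serpin, rose from 3.34 to 205 TPM in A549 wild type, and ALB rose from 2.52 to 302 TPM in H2023 wild type, where FGA was at 289 and 255 TPM.

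Of the coagulation factors and inhibitors, 13 of 21 listed had a row. In the A549 labelled knockout 5 fell and 1 rose in normal culture, where 8.83% of all genes fell and 6.52% rose, and 8 fell and 2 rose in stem-cell-enriched culture, where 10.1% fell and 9.39% rose. F5, the cofactor of the enzyme that makes thrombin, fell from a mean of 3.25 TPM to 0 in both libraries in normal culture and from 24.4 to 0.035 TPM in stem-cell-enriched culture (log2 differences -2.09 and -4.58, SE 0.24 for both). F7, the protease that starts the cascade with tissue factor, fell from 15.6 to 0.335 TPM and F2, prothrombin, from 12.6 to 0.685 TPM in stem-cell-enriched culture. THBD, thrombomodulin, fell by 1.24 (SE 0.20) in normal culture. TFPI2, an inhibitor of proteases, rose from 53.2 to 421 TPM in stem-cell-enriched culture, not past the threshold without labelled knockout replicate 2 or wild-type replicate 1. In normal culture 3 falls were left without either labelled knockout library or wild-type replicate 2, and in stem-cell-enriched culture 5 without labelled knockout replicate 2.

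F5 fell by limma in H2023 in both cultures too, from a mean of 10.3 to 0.055 TPM in normal culture (log2 difference -3.42, SE 0.28, limma adjusted p = 0.012) and from 23.3 to 2.28 TPM in stem-cell-enriched culture (-2.94, SE 0.28, limma adjusted p = 0.0154). In H2023 stem-cell-enriched culture F7, at 10.73 and 13.22 TPM in wild type, fell to 1.71 and 0.62 TPM, and THBD rose from 3.08 to 9.13 TPM. The F5 call was lost without any 1 library in normal culture, and in stem-cell-enriched culture it held only without labelled knockout replicate 1. F7 and THBD were lost without any 1 library. In the authors' deposited tables F7 is called lower in both H2023 cultures. F5 is called lower there in normal culture, with a log2 fold change of -7.38 (SE 0.43).

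Fibrinolysis genes dissolve fibrin or hold that back, and 9 are counted here. In the A549 labelled knockout 0 rose and 1 fell in normal culture, near the share of all genes (6.52% and 8.83%). In stem-cell-enriched culture 3 rose and 3 fell, against 9.39% and 10.1% of all genes, with 1 of the rises left without any 1 library. PLAU, urokinase, fell from 150 to 59.9 TPM in normal culture (log2 difference -1.30, SE 0.26), a call lost without labelled knockout replicate 2 or wild-type replicate 1. CPB2, which makes clots resist lysis, fell from 3.40 to 0.185 TPM in stem-cell-enriched culture. In H2023 limma called 0 of 9 in either culture. The authors' deposited tables call 3 higher in normal culture, where 3.84% of genes were higher. In stem-cell-enriched culture they call 0, where 2.22% of genes were higher and 2.85% lower.

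Of the receptors and partners of fibrinogen 11 had a row. In the A549 labelled knockout 4 rose and 1 fell in normal culture, against 6.52% and 8.83% of all genes, and 5 rose and 0 fell in stem-cell-enriched culture, against 9.39% and 10.1%. The 5 rises became 1 to 5 without 1 library (1 without labelled knockout replicate 1, 3 without wild-type replicate 1, 2 without wild-type replicate 2). ITGB3, the beta subunit of the fibrinogen receptors of platelets and endothelium, rose from 0.645 to 19.9 TPM in normal culture (log2 difference 3.59, SE 0.54) and from 1.21 to 11.7 TPM in stem-cell-enriched culture (2.47, SE 0.54), the second call lost without replicate 1 of either genotype. Its partner ITGAV rose by 1.31 (SE 0.17) in normal culture. FN1, fibronectin, which is cross-linked to fibrin, rose from 438 to 824 TPM in stem-cell-enriched culture, a call lost without labelled knockout replicate 1 or wild-type replicate 2. In H2023 TLR4 rose from 0.26 to 3.00 TPM in stem-cell-enriched culture, a call lost without any 1 library, and limma called 0 of 11 in normal culture. The authors' deposited tables call 2 higher and 3 lower in H2023 normal culture, FN1 among the lower, against 3.84% and 6.97% of genes. In H2023 stem-cell-enriched culture they call 2 higher and 0 lower, against 2.22% and 2.85%.

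Chaperones and cargo receptors of the secretory pathway, where the chains are assembled, included 12 with a row. In A549, 0 of 12 passed in normal culture, with CANX, calnexin, the nearest at a log2 difference of -0.37 (SE 0.11, limma adjusted p = 0.0502), and 2 rose and 1 fell in stem-cell-enriched culture, near the share of all genes (9.39% and 10.1%). MCFD2, part of the receptor that exports factor V and factor VIII, rose from 100 to 191 TPM. In H2023 limma called 0 of 12 in both cultures, and the authors' deposited tables call 1 lower in each.

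Of 19 relatives with a fibrinogen-like domain, 7 had a row. FGL1, a fibrinogen-like protein of hepatocytes, was at 16.93 and 26.6 TPM in A549 wild type and 7.4 and 8.45 TPM in the labelled knockout in normal culture, and at 214.58 and 177.69 TPM against 52.59 and 55.55 TPM in stem-cell-enriched culture. It fell by 1.32 (SE 0.20) and 1.83 (SE 0.20) and held in all 8 fits without a library. TNC, tenascin C, rose by 1.43 (SE 0.25) and 2.72 (SE 0.25), the first call lost without labelled knockout replicate 2. In normal culture 3 of the 7 rose, 0 to 2 without 1 library. Over all genes 6.52% rose in A549 normal culture. In H2023 limma called 0 of 7 in both cultures. The authors' deposited tables call 1 higher and 2 lower in H2023 normal culture, against 3.84% and 6.97% of genes. In H2023 stem-cell-enriched culture they call 1 higher and 1 lower, FGL1, against 2.22% and 2.85%. By limma FGL1 had a log2 difference of -1.45 (SE 0.38, limma adjusted p = 0.11) in stem-cell-enriched culture. FGL1 rose with stem-cell-enriched culture in H2023 wild type, from 1.62 to 19.3 TPM (log2 difference 3.02, SE 0.38), where FGA, FGB and FGG overlapped.

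**Figure D4:**
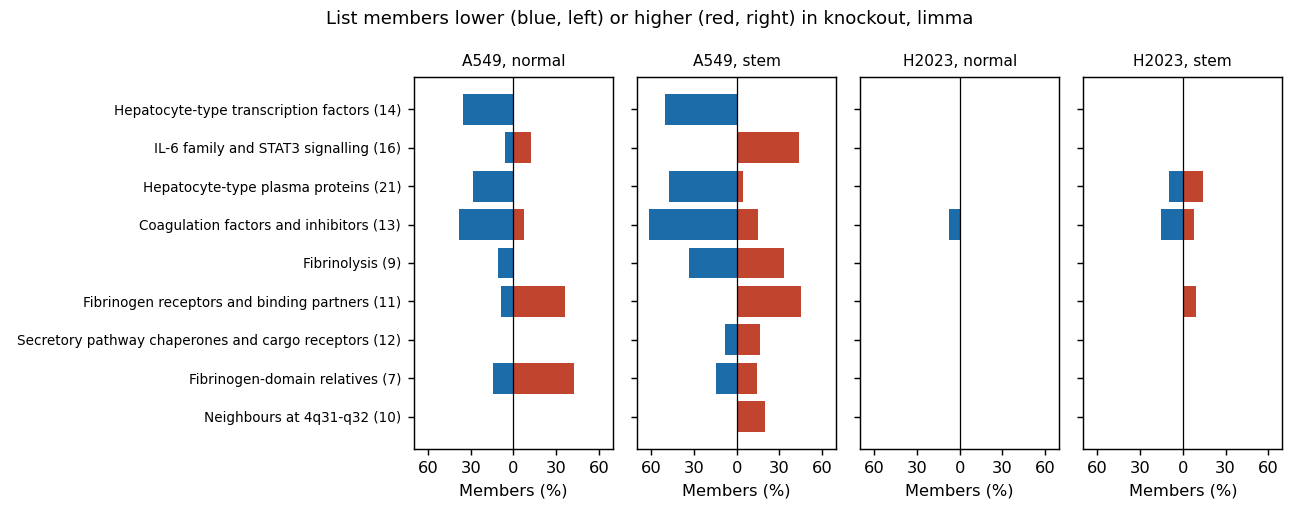
Share (%) of the measured members of each gene list (number with a row in brackets) that rose (red, right) or fell (blue, left) in the labelled knockout, by limma with an adjusted p under 0.05, in normal and stem-cell-enriched (stem) culture. In A549 the transcription factors have falls only, 5 and 7 of 14, and H2023 has no called factor.

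Of 18 neighbours of the locus listed, 10 had a row. Between genotypes limma called 0 of them in A549 normal culture and in both H2023 comparisons, and 2 higher and 0 lower in A549 stem-cell-enriched culture, where 9.39% and 10.1% of all genes were called. The authors' deposited tables call PDGFC lower in both H2023 cultures, where 6.97% and 2.85% of genes were lower, and no other neighbour there. In A549 they call 1 neighbour higher in stem-cell-enriched culture and 0 in normal culture. The share of all genes they call in A549 is not given here, so nothing is read from these counts. Between cultures, limma called 2 higher and 3 lower in A549 wild type, PLRG1 among the lower, where 19% of all genes rose and 21.6% fell. PLRG1, a splicing factor gene 13 kb from FGB, was at 77.55 and 72.82 TPM in A549 wild type and 58.79 and 63.51 TPM in the labelled knockout in normal culture, a log2 difference of -0.29 (SE 0.13, limma adjusted p = 0.167). In stem-cell-enriched culture its difference was -0.16 (SE 0.13, limma adjusted p = 0.44). DCHS2, a cadherin 67 kb away, was below 0.33 TPM in all libraries. LRAT and RBM46, on the other side, have no row in the tables used here. PDGFC, a growth factor 2147 kb away, rose from 2.84 to 7.22 TPM in stem-cell-enriched culture, held only without labelled knockout replicate 2.

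Some markers of other cell types were lower in the labelled knockout, as the chains were, in A549 stem-cell-enriched culture. Of 7 leukocyte markers 3 had a row, and their summed level was 151 to 245 TPM in wild type and 58.6 to 79.1 TPM in the labelled knockout. LYZ, lysozyme, fell from a mean of 12.7 to 0.14 TPM and CD68, a lysosomal protein, from 148 to 37.1 TPM. CD14 overlapped, at 47.61 and 26.79 TPM in wild type and 34.34 and 28.97 TPM in the labelled knockout. By limma 2 of the 3 thus fell, where 10.1% of all genes fell. PTPRC, CD3E, CD79A and CSF1R have no row. Of 8 endothelial and platelet markers 4 had a row, with a sum of 8.85 to 9.10 TPM in wild type and 1.39 to 2.38 TPM in the labelled knockout. By limma 3 of the 4 fell, PF4, PPBP and PECAM1, against the same 10.1% of all genes. ITGA2B overlapped between the genotypes. The hepatocyte markers ALB and AHSG summed to 21.1 to 27.5 TPM in wild type and 0.36 to 1.25 TPM in the labelled knockout, and both were listed at 0 in the 2 labelled knockout libraries of normal culture. Fibroblast markers, 4 of 8 with a row, summed to 10.3 TPM or less in every library. Of the 7 epithelial markers 2 fell and 0 rose in A549 stem-cell-enriched culture, where 10.1% of all genes fell and 9.39% rose. KRT19 fell from 74.0 to 4.61 TPM and EPCAM from 8.67 to 0.925 TPM. CDH1 and NAPSA were above wild type without overlap, and the median difference was 0.05. In A549 normal culture the summed epithelial markers were at 9348 and 9176 TPM in wild type and 5013 and 2574 TPM in the labelled knockout. Of the 7, 4 were lower (KRT8, KRT18, KRT19 and CDH1) and 1 higher (NAPSA), against 8.83% and 6.52% of all genes. The median difference was -1.11. The part of these cells or genes in the fibrinogen levels was not tested.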

How the data were processed

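RNA-seq libraries (stranded mRNA, per the labels' protocols) of 16 samples were analysed from 4 deposited tables, 1 per line and culture. The submitters' processing notes name HISAT2, StringTie and GRCh38, with no versions or roles. The authors deposited TPM per library, and per gene a mean normalized count (a signal), a log2 fold change with its standard error, a test statistic (a score), and p-values with adjusted p-values, under the column names of DESeq2 per the file headers. In all 18361 rows of each table that statistic is signed against the fold change, whose sign fits the TPM of the chains and was used. Rows repeated for 119 identifiers hold identical values and the first was kept, leaving 18227 genes.

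The main test ran in R 4.3.3 with the trend option of limma 3.58.1, on TPM as log2 after adding a pseudocount of 1 and with no filter, two-sided, over the 8 libraries of a line (4 residual degrees of freedom), with Benjamini-Hochberg adjustment over all genes and a threshold of 0.05. The test was checked on simulated data. TPM summed to 991838 to 998125 per library in all tables, and cultures were compared in 1 fit per line. Alternatives were a pseudocount of 0.1 TPM, genes with a mean of at least 1 TPM, the 4 libraries of a comparison, the replicate number as a block, centring on the median, and each library left out. Their effect on the list members was added after seeing the data. Members and lists were chosen with earlier results of these data known. Named genes are the chains, ZC3H12A, the 5 genes most like each chain, up to 4 called members per list and comparison by size of difference (up to 2 where none was called) and the nearest neighbours, of which a part is printed. Promoter sequences are RefSeq's and gene positions GENCODE's. Protein sequences were not used here. A few genes and a motif are not reported here, and those genes were left out of the list counts. Figures were drawn with matplotlib 3.10.9.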

Additional observations from a re-analysis of the deposited data

Results flagged for a closer look

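C3 and THBD were flagged for moving in opposite directions in a pair of comparisons, with no overlap between libraries in either. The pair differs in culture and days for C3, and in line and clone for THBD. Other list genes did so too, SAA1 among them, between the lines in normal culture. Wild type first, SAA1 was at 16.37 and 20.7 TPM against 3.13 and 0.36 TPM in A549. In H2023 it was at 2.16 and 3.5 TPM against 10 and 8.84 TPM, not past the threshold by limma. C3, the central complement protein and a plasma protein of hepatocytes, had a labelled knockout minus wild type difference of -1.27 on the log2(TPM + 1) scale in A549 normal culture and of 1.06 in A549 stem-cell-enriched culture, so that the differences lie 2.33 apart. It was at 136.84 and 137.91 TPM in wild type and 46.07 and 68.83 TPM in the labelled knockout in normal culture, and at 410.19 and 269.12 TPM against 644.03 and 742.95 TPM in stem-cell-enriched culture. The chains were lower in the labelled knockout in both cultures. THBD, thrombomodulin, had a difference of -1.89 in A549 and of 1.304 in H2023, both in stem-cell-enriched culture, 3.19 apart. It was at 8.72 and 8.97 TPM against 1.79 and 1.54 TPM in A549, and at 2.6 and 3.56 TPM against 7.51 and 10.76 TPM in H2023, wild type first. None of these differences between comparisons was tested.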

How the results depend on the processing

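With 2 libraries per group, depth unknown and 1 clone per line, sizes are loosely fixed. For FGA, FGB and FGG in that order, log2(TPM + 0.1) gave knockout differences of -8.03, -8.72 and -7.20 in A549 normal culture, and culture differences of 4.68, 3.89 and 4.81 in the A549 labelled knockout. In A549 stem-cell-enriched culture it gave -7.39 for FGB and -6.44 for FGG. The authors' deposited fold changes were -9.01, -10.15 and -8.86 in A549 normal and -5.87, -7.45 and -6.51 in A549 stem-cell-enriched culture. Without 1 library the knockout differences ranged from -7.33 to -4.67, -8.12 to -5.48 and -6.45 to -2.56 in A549 normal culture, -5.84 to -5.42, -7.33 to -6.94 and -6.37 to -5.95 in A549 stem-cell-enriched culture, -1.34 to -0.77, -1.52 to -0.61 and -2.25 to -1.23 in H2023 normal culture, and -0.72 to -0.30, -1.12 to -0.63 and -1.13 to -0.73 in H2023 stem-cell-enriched culture. Culture differences ranged from 1.10 to 3.75, 1.22 to 3.86 and 1.99 to 5.88 in A549 wild type, 2.71 to 2.88, 2.01 to 2.40 and 2.08 to 2.49 in the A549 labelled knockout, -0.45 to 0.12, -0.47 to 0.43 and 0.03 to 1.05 in H2023 wild type, where FGA and FGB changed sign, and 0.35 to 0.41, 0.12 to 0.23 and 1.13 to 1.56 in the H2023 labelled knockout.

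Called genes in the comparisons of genotype were 2799 and 3548 in A549 normal and stem-cell-enriched culture and 147 and 281 in H2023, and without 1 library 948 to 1683, 1786 to 2843, 0 to 39 and 1 to 22, which leaves 1 group with a lone library assumed to vary like the others. For culture they were 7392 and 3784 in A549 wild type and labelled knockout and 3901 and 4895 in H2023, and without 1 library 4924 to 6105, 2010 to 2436, 1697 to 2630 and 2090 to 3171. In H2023 normal and stem-cell-enriched culture, genes with a mean of at least 1 TPM gave 295 and 485, the authors' deposited p-values 1665 and 816, and the 4 libraries of the comparison 0 and 0 with limma, with 3314 and 2828 at an unadjusted p under 0.05. H2023 wild-type culture gave 1105 with 4 libraries. Centring changed 145 higher and 136 lower genes in H2023 stem-cell-enriched culture to 133 and 220, 721 and 3180 in H2023 wild-type culture (median -0.18) to 1128 and 1492, and 1400 and 3495 in H2023 labelled knockout culture (median -0.12) to 1842 and 2422. The main fit does not pair libraries by replicate number. Same-numbered libraries deviated with r of 0.00023 to 0.473, not all above 0.1. The highest was between the H2023 labelled knockout and wild type in stem-cell-enriched culture. With the replicate block the genotype counts were 2887, 3650, 125 and 220 and the culture counts 7592, 3940, 4270 and 5401. In the totals that follow, the filter on mean TPM enters with 276 calls, all kept, since genes it removed are not counted. Over the called list genes, leaving out 1 library kept 819 calls and lost 425, the other settings kept 1401 and lost 119, and no direction changed.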
